A study of Mus musculus with 8 samples.

Results

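A set of 61 probes was brighter in KO than in WT thymocytes both among Foxp3+ and among Foxp3- cells, out of 14942 probes in the table of processed log2 values that the authors deposited (0.408%). A probe was a member when the mean of the KO arrays exceeded the mean of the WT arrays by at least 0.5 on the log2 scale in each sorted fraction. Of these probes, 57 were paired with 1 gene, which gave 52 genes, and 4 had no gene in the annotation used here. Expression was read in mouse thymus T cells on an Illumina array that carries every probe on many beads, with 4 groups of 2 samples. The groups were KO cells sorted as CD4+Foxp3+, WT cells sorted as CD4+Foxp3+, KO cells sorted as CD4SPFoxp3- (CD4 single-positive) and WT cells sorted as CD4SPFoxp3-. KO mice carried floxed alleles of both E proteins (E2Af/fHEBf/f) with ER-Cre, a Cre recombinase that tamoxifen activates, and Foxp3KI, a knock-in at the Foxp3 locus. WT mice also carried Foxp3KI, and their label names no Cre. Oral tamoxifen was given to both, 4 doses of 3 mg within 10 days. The labels give neither the age nor the number of mice behind a sample, so p-values measure the spread between samples, which may be technical.

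E2A and HEB, the products of Tcf3 and Tcf12, are E proteins, a class of basic helix-loop-helix factors that bind DNA as dimers at E boxes, the motif CANNTG. Id proteins pair with E proteins and keep them off DNA. E proteins act at successive steps of thymocyte development, and Foxp3 is the factor that marks regulatory T cells. No probe tested was named Tcf3. The Tcf12 probe read 6.44 and 6.22 in KO Foxp3+ cells against 7.29 and 7.48 in WT Foxp3+ cells, and 6.86 and 6.74 in KO Foxp3- cells against 7.66 and 7.57 in WT Foxp3- cells. It fell by 1.06 in KO Foxp3+ cells and fell by 0.81 in KO Foxp3- cells on the log2 scale (limma adjusted p = 0.00363 and 0.00387). Whether this probe lies in the deleted part was not analysed here. One Foxp3 probe was 5.26 higher in Foxp3+ than in Foxp3- cells on the log2 scale, averaged over both genotypes (limma adjusted p = 2.91e-07), and was detected on 4 Foxp3+ and 0 Foxp3- arrays. A second Foxp3 probe was detected on 1 of the 8 arrays.

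Promoter windows were read because E proteins bind E boxes. RefSeq windows of 300 bases (250 before to 50 after a gene's start, GRCm38.p6) were found for 42 of the 52 genes, 66 windows in all. CANNTG, which is its own reverse complement, occurred in 69.7% of the members' windows and in 72.3% of all 32851 windows. CAGCTG was found in 10.6% of the members' windows against 16.3% of all windows. CACCTG or its reverse complement CAGGTG was found in 13.6% against 20.2%, and CACGTG in 10.6% against 7.15%. Each of these is a form of CANNTG. Windows are shown for the 4 genes with 1 window whose smaller KO minus WT difference was largest, 5′ to 3′ on the gene's strand, with each CANNTG in capitals. They are Gdpd3 (chr7:126766164-126766463, plus strand), Aim2 (chr1:173420354-173420653, plus strand), Klf6 (chr13:5861239-5861538, plus strand) and Cxcr4 (chr1:128592250-128592549, minus strand).
Gdpd3 promoter: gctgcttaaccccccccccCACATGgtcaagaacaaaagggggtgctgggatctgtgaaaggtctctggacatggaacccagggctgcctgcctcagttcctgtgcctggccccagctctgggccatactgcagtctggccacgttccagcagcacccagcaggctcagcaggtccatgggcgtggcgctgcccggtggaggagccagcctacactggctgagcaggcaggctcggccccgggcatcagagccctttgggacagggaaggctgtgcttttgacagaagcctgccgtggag
Aim2 promoter: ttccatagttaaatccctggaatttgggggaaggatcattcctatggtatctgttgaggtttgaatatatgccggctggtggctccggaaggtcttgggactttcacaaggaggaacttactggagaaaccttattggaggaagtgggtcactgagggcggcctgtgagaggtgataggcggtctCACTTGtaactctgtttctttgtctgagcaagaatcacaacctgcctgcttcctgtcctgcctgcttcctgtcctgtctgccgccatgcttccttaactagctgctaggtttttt
Klf6 promoter: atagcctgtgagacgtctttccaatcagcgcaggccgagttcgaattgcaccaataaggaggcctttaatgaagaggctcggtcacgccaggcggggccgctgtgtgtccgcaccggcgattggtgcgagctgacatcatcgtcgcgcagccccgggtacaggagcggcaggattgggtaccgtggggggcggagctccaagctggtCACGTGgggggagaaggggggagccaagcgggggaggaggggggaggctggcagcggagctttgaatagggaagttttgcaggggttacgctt
Cxcr4 promoter: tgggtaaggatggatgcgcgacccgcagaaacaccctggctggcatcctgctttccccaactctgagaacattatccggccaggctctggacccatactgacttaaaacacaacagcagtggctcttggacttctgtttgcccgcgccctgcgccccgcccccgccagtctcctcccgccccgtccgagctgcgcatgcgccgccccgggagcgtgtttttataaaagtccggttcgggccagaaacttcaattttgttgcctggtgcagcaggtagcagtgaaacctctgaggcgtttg
Gdpd3, Aim2 and Klf6 each had 1 match in this window and Cxcr4 had 0. A match is a string of letters and not a measured binding site.

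The members were 13.3% of the 460 probes at least 0.5 higher in KO Foxp3- cells and 54% of the 113 probes at least 0.5 higher in KO Foxp3+ cells. The difference was the larger one in Foxp3+ cells for 14 members and in Foxp3- cells for 47. At least 1 on the log2 scale was reached by 5 members in Foxp3+ cells, by 29 in Foxp3- cells and by 3 in both, namely Gdpd3, Tnfaip3 and Aim2. Just inside the threshold lay Nr1d2, Sqle and Rassf1, with smaller differences of 0.50, 0.51 and 0.51. Just outside lay Irak3, Rora and Cdc14b, with 0.49, 0.49 and 0.48. The members were chosen by these differences, which are therefore described and not tested.

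**Figure D1:**
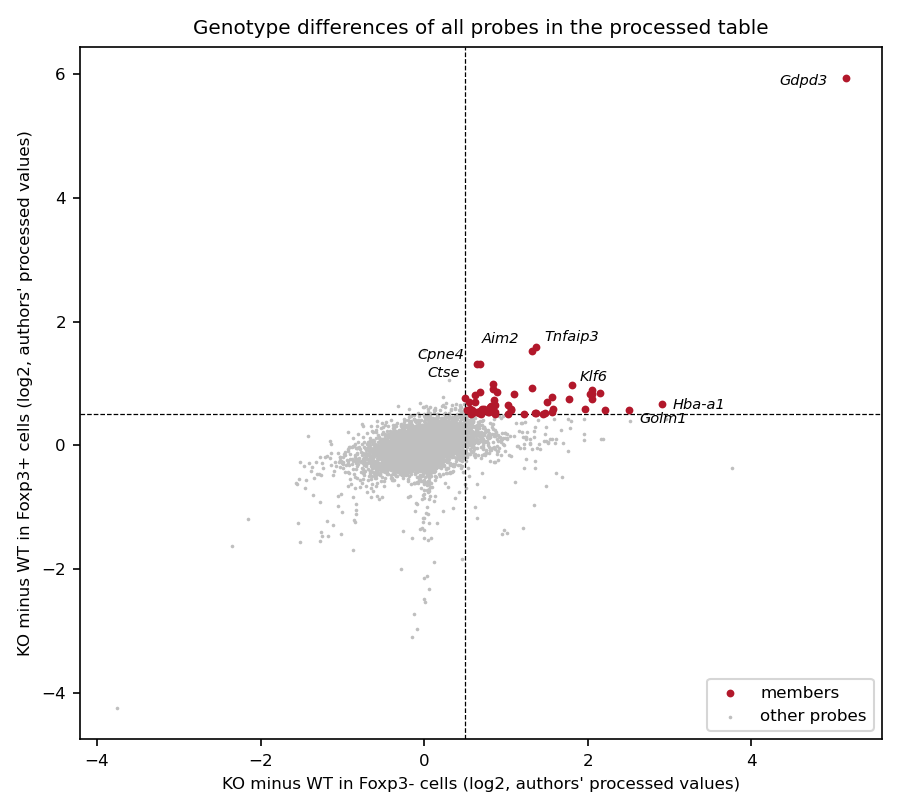
Each point is a probe of the processed table, placed by its KO minus WT difference in Foxp3- cells (x axis, log2) and in Foxp3+ cells (y axis, log2). Dashed lines mark 0.5, the 61 members are red, and Gdpd3 stands alone at 5.15 and 5.92.

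Levels given from here on are log2 intensities after background correction and quantile normalization (neqc), on which differences of dim probes come out larger than in the authors' table. All 61 members passed the filter for tested probes, which asked for 2 or more arrays with a detection p under 0.05, and 57 were detected on all 8. The median member was 0.85 higher in KO than in WT among Foxp3+ cells and 1.49 higher among Foxp3- cells, where the medians of all 13526 probes tested were 0.01 and -0.01. In bulk samples, more cells of a type and more RNA per cell cannot be told apart. In the fit over all probes, 44 members had an adjusted p under 0.05 (limma) in Foxp3+ cells, where 1.47% of all probes were called higher in KO. In Foxp3- cells 60 did, beside 10.3% of all probes, and the exception was the unnamed probe ILMN_3026397. Both KO arrays lay above both WT arrays for 58 members in Foxp3+ cells, beside 25.6% of all probes tested, and for 61 in Foxp3- cells, beside 32%. The exceptions in Foxp3+ cells were both Ccr6 probes and Hbb-bt. The rule used these contrasts, so nothing is read from their counts.

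The replicates of KO Foxp3+ cells stood further apart than those of the other groups. The median gap between the 2 arrays over members was 0.21 log2 units in KO Foxp3+ cells, 0.12 in WT Foxp3+ cells, 0.10 in KO Foxp3- cells and 0.08 in WT Foxp3- cells. Over all probes tested these gaps were 0.18, 0.13, 0.13 and 0.11. A gap above 0.5 was found for 14 members in KO Foxp3+ cells, 4 in WT Foxp3+ cells and 0 in either Foxp3- group.

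Gdpd3, which encodes a glycerophosphodiester phosphodiesterase domain protein, had the largest difference of the members in both fractions. It read 13.31 and 13.21 in KO Foxp3+ cells against 6.13 and 6.09 in WT Foxp3+ cells, and 12.69 and 12.62 in KO Foxp3- cells against 6.39 and 6.56 in WT Foxp3- cells. All KO arrays stood far above all WT arrays, which were dim but detected. The excess was 142-fold in Foxp3+ and 72.3-fold in Foxp3- cells.

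Dmbt1 and Cpne4 were detected on all KO arrays and on none of the WT arrays. Dmbt1, a secreted protein with scavenger receptor domains, read 7.12 and 6.05 in KO Foxp3+ cells and 8.58 and 8.53 in KO Foxp3- cells. It was at least 3.83-fold higher in KO than in WT among Foxp3+ cells and at least 14.1-fold higher among Foxp3- cells, taking for each WT array the higher of its lowest detected signal and the probe's own signal. Cpne4, a copine that binds membranes in response to calcium, read 7.46 and 7.67 in KO Foxp3+ cells and 6.39 and 6.59 in KO Foxp3- cells. By the same measure it was at least 7.53-fold higher among Foxp3+ cells and at least 3.38-fold higher among Foxp3- cells. In KO cells, Dmbt1 was thus brighter in the Foxp3- sort and Cpne4 in the Foxp3+ sort.

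Tnfaip3, Nfkbib, Nlrc3 and Aim2 are described together for their known roles, a grouping made after their values were seen and with no list behind it. Tnfaip3 encodes A20, a ubiquitin-editing enzyme that restrains NF-kappaB. It read 11.44 and 12.18 in KO Foxp3+ cells against 10.16 and 10.14 in WT Foxp3+ cells, and 10.85 and 10.90 in KO Foxp3- cells against 9.35 and 9.42 in WT Foxp3- cells. This was 3.16-fold higher in KO among Foxp3+ cells and 2.81-fold higher among Foxp3- cells. Aim2, a cytosolic DNA sensor, read 8.41 and 8.45 in KO Foxp3+ cells against 5.91 and 5.80 in WT Foxp3+ cells, and 7.54 and 7.86 in KO Foxp3- cells against 4.78 and 4.77 in WT Foxp3- cells. The KO and WT arrays of both genes were separate within each fraction. Nfkbib, an inhibitor that holds NF-kappaB in the cytoplasm, was 2.08-fold higher in KO Foxp3+ and 2.74-fold higher in KO Foxp3- cells. Nlrc3, an NLR protein described as a brake on innate signalling, was 1.48-fold and 1.88-fold higher.

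Cell surface receptors among the members included those of chemokines, cytokines and thrombin, and an integrin chain. Cxcr4, the receptor for the chemokine CXCL12, read 11.23 and 11.06 in KO Foxp3+ cells against 10.08 and 10.23 in WT Foxp3+ cells, and 10.42 and 10.45 in KO Foxp3- cells against 8.97 and 8.93 in WT Foxp3- cells. Itgae encodes CD103, the integrin alpha chain that binds E-cadherin together with its beta partner. Its probe ILMN_1217629 read 12.13 and 11.29 in KO Foxp3+ cells against 10.83 and 10.82 in WT Foxp3+ cells, and 10.32 and 10.41 in KO Foxp3- cells against 7.82 and 7.80 in WT Foxp3- cells. The KO excess of Itgae was 1.84-fold in Foxp3+ and 5.89-fold in Foxp3- cells, and KO Foxp3- cells stayed below WT Foxp3+ cells. Ccr6, the receptor for CCL20, read 11.35 and 10.26 in KO Foxp3+ cells against 10.40 and 9.96 in WT Foxp3+ cells, and 8.63 and 8.63 in KO Foxp3- cells against 5.02 and 4.90 in WT Foxp3- cells on probe ILMN_2888448. Its genotypes overlapped in Foxp3+ cells and stood 12.7-fold apart in Foxp3- cells. On the second Ccr6 probe, not detected in WT Foxp3- cells, KO Foxp3- cells were at least 5.32-fold higher than WT Foxp3- cells.

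The cytokine receptors differed in how they followed the fractions. Il18r1, a chain of the interleukin-18 receptor, read 10.83 and 10.26 in KO Foxp3+ cells against 9.54 and 9.60 in WT Foxp3+ cells, and 10.98 and 11.10 in KO Foxp3- cells against 8.68 and 8.87 in WT Foxp3- cells. Il10ra, the ligand-binding chain of the interleukin-10 receptor, read 10.12 and 10.07 in KO Foxp3+ cells against 9.09 and 9.36 in WT Foxp3+ cells, and 9.29 and 9.08 in KO Foxp3- cells against 7.07 and 7.06 in WT Foxp3- cells. By group mean Il18r1 was highest in KO Foxp3- cells, whereas Il10ra was highest in KO Foxp3+ cells. Il7r, the receptor chain for interleukin-7, was bright in all groups, and 1.57-fold higher in KO Foxp3+ and 1.77-fold higher in KO Foxp3- cells. F2r, the thrombin receptor, was 1.52-fold and 2.2-fold higher.

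Wider lists of receptor genes were counted beside these members. Over all probes tested, 1.47% were called higher and 2.4% lower in KO Foxp3+ cells, and 10.3% and 10.9% in KO Foxp3- cells. Of 23 probes for chemokine receptors and adhesion molecules, KO Foxp3+ cells had 2 called higher and 3 lower than WT, and KO Foxp3- cells had 17 and 1 (limma adjusted p under 0.05). The list held 6 member probes, chosen by these contrasts. Its other probes had 0 called higher and 3 lower in KO Foxp3+ cells, and 11 and 1 in KO Foxp3- cells. At an unadjusted p under 0.05 the counts over the whole list were 6 and 5 for KO Foxp3+ cells, and 18 and 2 for KO Foxp3- cells. With members included, the median KO minus WT difference of the list was 0.24 in Foxp3+ and 1.48 in Foxp3- cells. Of 32 cytokine receptor probes, KO Foxp3+ cells had 5 called higher and 0 lower than WT, and KO Foxp3- cells had 14 and 4 (limma adjusted p under 0.05). At an unadjusted p under 0.05 the counts were 8 and 3 for KO Foxp3+ cells, and 14 and 5 for KO Foxp3- cells. The shares of all probes above are at the adjusted cut. None was counted at the unadjusted cut, so nothing is read from the unadjusted counts of either list. This list held 3 member probes, chosen by these contrasts. At the adjusted cut its other probes had 2 called higher and 0 lower in KO Foxp3+ cells, and 11 and 4 in KO Foxp3- cells. With members included, the median difference of this list was 0.04 in Foxp3+ and 0.29 in Foxp3- cells.

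**Figure D2:**
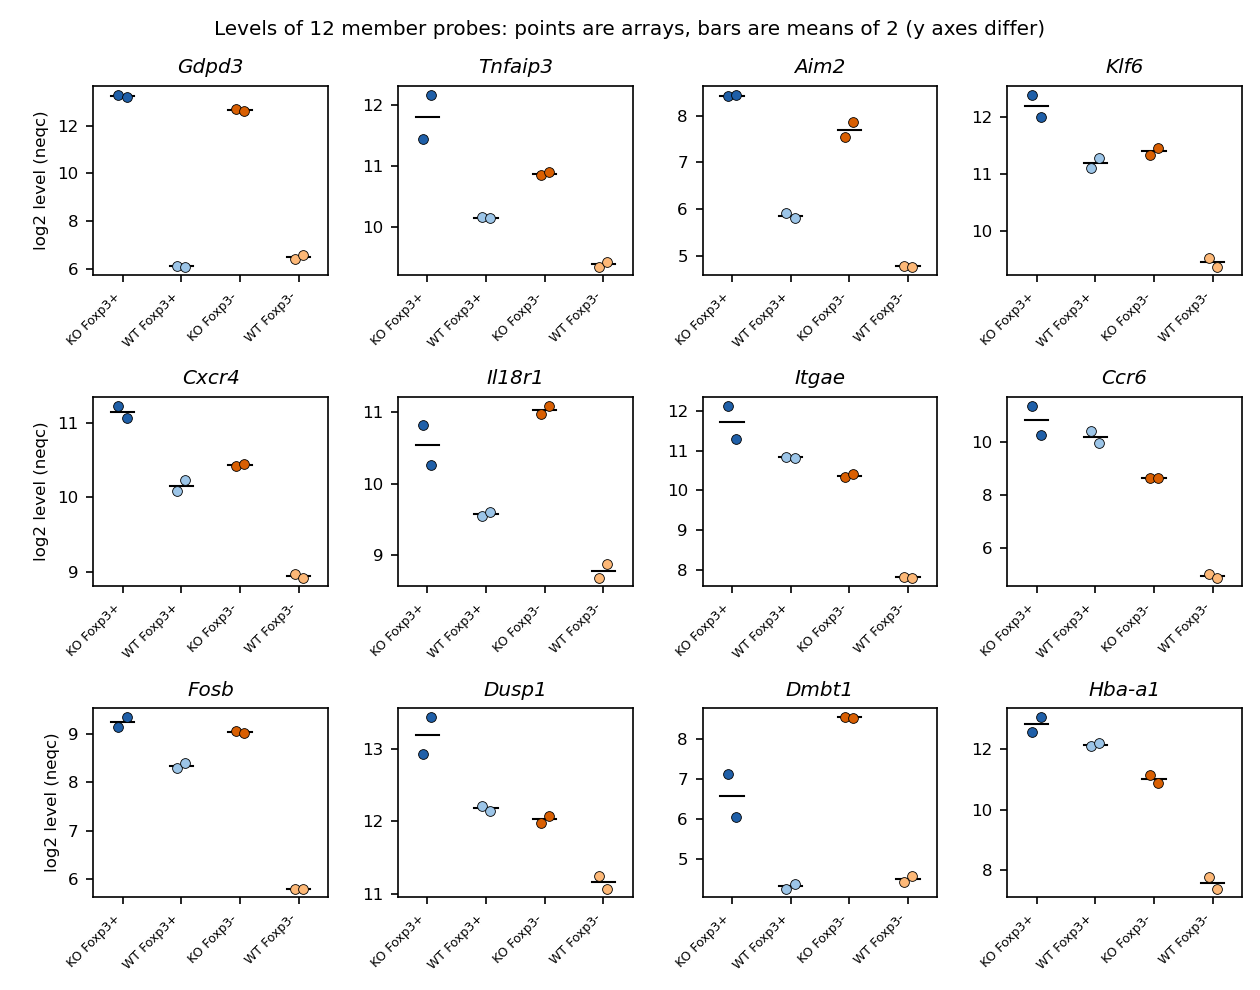
Log2 levels (y axis, neqc, with axes that differ between panels) of 12 member probes in the 4 groups, with a point for each array and a bar at the mean of 2. KO points lie above WT points within each fraction except for Ccr6, whose KO and WT points overlap in Foxp3+ cells.

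Transcriptional regulators among the members were Klf6, Klf9, Fos, Fosb, Bhlhe40, Nr1d2, Pou6f1 and Tsc22d3. Klf6, a zinc finger factor, had 2 member probes, of which ILMN_2731949 read 12.38 and 12 in KO Foxp3+ cells against 11.10 and 11.28 in WT Foxp3+ cells, and 11.32 and 11.46 in KO Foxp3- cells against 9.53 and 9.38 in WT Foxp3- cells. Fosb, a subunit of the AP-1 factor, read 9.15 and 9.36 in KO Foxp3+ cells against 8.30 and 8.39 in WT Foxp3+ cells, and 9.06 and 9.02 in KO Foxp3- cells against 5.81 and 5.81 in WT Foxp3- cells. The Fosb difference was 1.88-fold in Foxp3+ and 9.41-fold in Foxp3- cells, with WT Foxp3- cells well below the other groups. Fos, another AP-1 subunit, read 11.85 and 12.64 in KO Foxp3+ cells against 11.41 and 11.53 in WT Foxp3+ cells, and 11.68 and 11.71 in KO Foxp3- cells against 9.87 and 9.76 in WT Foxp3- cells. Bhlhe40, a basic helix-loop-helix repressor that itself binds E boxes, read 9.63 and 9.55 in KO Foxp3+ cells against 9.21 and 8.78 in WT Foxp3+ cells, and 8.28 and 8.44 in KO Foxp3- cells against 5.85 and 5.86 in WT Foxp3- cells. Its excess in KO was 1.52-fold in Foxp3+ and 5.69-fold in Foxp3- cells. Nr1d2, a nuclear receptor of the circadian clock, and Klf9, a zinc finger factor, had more even differences, at 2.21-fold and 1.91-fold for Nr1d2 and at 2.04-fold and 2.2-fold for Klf9. Pou6f1, a POU domain factor, was 2.09-fold and 2.93-fold higher, and Tsc22d3, a leucine zipper protein induced by glucocorticoids, was 1.46-fold and 1.52-fold higher.

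Fos, Fosb and Dusp1, a phosphatase that inactivates MAP kinases, belong to the immediate early genes, which cells induce within minutes of stimulation or handling. Dusp1 read 12.93 and 13.44 in KO Foxp3+ cells against 12.21 and 12.15 in WT Foxp3+ cells, and 11.98 and 12.08 in KO Foxp3- cells against 11.26 and 11.08 in WT Foxp3- cells. KO lay above WT in each fraction, and Foxp3+ above Foxp3- in each genotype. Of 16 probes for immediate early genes and genes induced by the T cell receptor, KO Foxp3+ cells had 3 called higher and 2 lower than WT, and KO Foxp3- cells had 7 and 4 (limma adjusted p under 0.05), 3 of the probes being members. Those 3 members were chosen by these contrasts. The other probes had 1 called higher and 2 lower in KO Foxp3+ cells, and 4 and 4 in KO Foxp3- cells. Over all probes tested, 1.47% were called higher and 2.4% lower in KO Foxp3+ cells, and 10.3% and 10.9% in KO Foxp3- cells. At an unadjusted p under 0.05 the counts over the whole list were 6 and 2 for KO Foxp3+ cells, and 9 and 4 for KO Foxp3- cells. No share of all probes was counted at that cut, so nothing is read from the unadjusted counts. The summed level of the list, members included, is the log2 of its summed intensities. It ran from 15.02 to 15.46 in KO Foxp3+ cells and 14.68 to 14.74 in WT Foxp3+ cells. In Foxp3- cells it ran from 14.84 to 14.86 in KO and 14.53 to 14.57 in WT. Jun, an AP-1 subunit and no member, rose by 0.75 in KO Foxp3+ cells and by 0.98 in KO Foxp3- cells on the log2 scale (limma adjusted p = 0.0381 and 0.00412). Egr2, a factor induced by the T cell receptor and no member, fell by 0.70 in KO Foxp3+ cells and fell by 0.84 in KO Foxp3- cells (limma adjusted p = 0.0154 and 0.00211).

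Signalling members covered kinases, phosphatases and adaptors. Inppl1, the inositol phosphatase SHIP2, had 2 member probes whose KO excess was 1.58-fold and 1.63-fold in Foxp3+ cells and 4.29-fold and 4.08-fold in Foxp3- cells. Sgk1, a kinase regulated by serum and glucocorticoids, read 10.02 and 10.35 in KO Foxp3+ cells against 9.59 and 9.66 in WT Foxp3+ cells, and 11.33 and 11.34 in KO Foxp3- cells against 10.51 and 10.33 in WT Foxp3- cells. Sgk1 was thus higher in the Foxp3- sort of each genotype. Prkd3, a protein kinase D, was 1.73-fold higher in KO Foxp3+ and 1.51-fold higher in KO Foxp3- cells, and Dtx1, a ubiquitin ligase of the Notch pathway, was 1.52-fold and 1.86-fold higher. Of 9 probes of a Notch and Wnt list that held Dtx1, KO Foxp3+ cells had 0 called higher and 0 lower than WT, and KO Foxp3- cells had 3 and 2 (limma adjusted p under 0.05). Without Dtx1, chosen by these contrasts, they were 0 and 0 in KO Foxp3+ cells, and 2 and 2 in KO Foxp3- cells. The shares of all probes called higher and lower were 1.47% and 2.4% in KO Foxp3+ cells, and 10.3% and 10.9% in KO Foxp3- cells. At an unadjusted p under 0.05 the counts over the whole list were 2 and 0 for KO Foxp3+ cells, and 5 and 2 for KO Foxp3- cells. No share of all probes was counted at that cut, so nothing is read from the unadjusted counts. The group also held Vav3, a guanine nucleotide exchange factor, Plekha1, an adaptor that binds phosphoinositides, the phosphatase Ptprv, and Rassf1, a Ras association domain protein. Their differences ran from 1.45-fold to 1.86-fold in Foxp3+ cells and from 1.55-fold to 2.04-fold in Foxp3- cells.

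Metabolic members included enzymes of sterol synthesis. Hsd17b7, which acts late in cholesterol synthesis, read 8.53 and 8.57 in KO Foxp3+ cells against 7.35 and 7.37 in WT Foxp3+ cells, and 8.04 and 8.19 in KO Foxp3- cells against 6.65 and 6.79 in WT Foxp3- cells. Sqle, squalene epoxidase, was 1.55-fold higher in KO Foxp3+ and 3.92-fold higher in KO Foxp3- cells. Of 14 probes of a sterol and fatty acid list that held Sqle and not Hsd17b7, KO Foxp3+ cells had 1 called higher and 0 lower than WT, and KO Foxp3- cells had 4 and 0 (limma adjusted p under 0.05). Without Sqle, chosen by these contrasts, they were 0 and 0 in KO Foxp3+ cells, and 3 and 0 in KO Foxp3- cells. The shares of all probes called higher and lower were 1.47% and 2.4% in KO Foxp3+ cells, and 10.3% and 10.9% in KO Foxp3- cells. At an unadjusted p under 0.05 the counts over the whole list were 5 and 0 for KO Foxp3+ cells, and 4 and 1 for KO Foxp3- cells. Asns, asparagine synthetase, was 2.24-fold higher in KO Foxp3+ cells and at least 2.97-fold higher in KO Foxp3- cells, since it was not detected in WT Foxp3- cells. Txnip, an inhibitor of thioredoxin that responds to glucose, was 1.59-fold and 2.09-fold higher, and Eno2, an enolase, 1.96-fold and 2.29-fold. Adat2, a subunit of a tRNA adenosine deaminase, was 2.35-fold and 2.15-fold higher. Of 11 probes of a heat shock and stress list that held Txnip, KO Foxp3+ cells had 1 called higher and 0 lower than WT, and KO Foxp3- cells had 2 and 1 (limma adjusted p under 0.05). Without Txnip, chosen by these contrasts, they were 0 and 0 in KO Foxp3+ cells, and 1 and 1 in KO Foxp3- cells, beside the same shares of all probes as above. At an unadjusted p under 0.05 the counts over the whole list were 2 and 1 for KO Foxp3+ cells, and 2 and 1 for KO Foxp3- cells. No share of all probes was counted at that cut, so nothing is read from the unadjusted counts of either list.

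Members of membrane traffic and the cell surface had some of the most uneven differences. Golm1, a Golgi membrane protein, read 9.12 and 8.96 in KO Foxp3+ cells against 8.34 and 8.35 in WT Foxp3+ cells, and 9.98 and 10.08 in KO Foxp3- cells against 6.70 and 6.74 in WT Foxp3- cells. Its KO excess was 1.62-fold in Foxp3+ cells and 9.91-fold in Foxp3- cells. Emp1, a small membrane protein, was 2.25-fold and 6.65-fold higher, Ahnak, a giant scaffold protein, 1.53-fold and 6.76-fold, and Sorl1, a sorting receptor, 1.71-fold and 3.28-fold. Ctse, the protease cathepsin E, had the larger excess in Foxp3+ cells. It read 9.57 and 9.34 in KO Foxp3+ cells against 7.81 and 7.84 in WT Foxp3+ cells, and 9.05 and 9.27 in KO Foxp3- cells against 8.53 and 8.19 in WT Foxp3- cells. The members whose KO minus WT difference was larger in Foxp3+ than in Foxp3- cells by the widest margins were Cpne4, Gdpd3, Ctse and Nr1d2, by 1.10, 0.98, 0.83 and 0.21 on the log2 scale. The margin of Cpne4 is set by WT arrays on which it was not detected. Vps11, a subunit of vacuolar sorting complexes, was 1.57-fold and 1.76-fold higher in KO, and Stx1a, a syntaxin of vesicle fusion, was 1.57-fold and 1.68-fold higher.

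The remaining named members were Bag3, a co-chaperone of heat shock proteins, the F-box proteins Fbxo27 and Fbxl12, Podnl1, Ovgp1 and Fam177a. Their KO excess ran from 1.53-fold to 2.41-fold in Foxp3+ cells and from 1.97-fold to 6.93-fold in Foxp3- cells, and Fbxo27 had the largest value of both ranges. The 4 probes without a gene ran from 1.48-fold to 3.07-fold in Foxp3+ and from 1.61-fold to 4.08-fold in Foxp3- cells.

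Haemoglobin probes were members as well, although haemoglobin is known as a product of erythroid cells. These genes have near-identical copies, so which copy a probe reads is uncertain. Hba-a1 read 12.57 and 13.07 in KO Foxp3+ cells against 12.11 and 12.18 in WT Foxp3+ cells, and 11.13 and 10.90 in KO Foxp3- cells against 7.77 and 7.40 in WT Foxp3- cells. Hbb-bt read 8.80 and 9.74 in KO Foxp3+ cells against 8.44 and 8.84 in WT Foxp3+ cells, and 6.96 and 6.91 in KO Foxp3- cells against 5.06 and 4.85 in WT Foxp3- cells. WT Foxp3- cells were lowest for both, and the Hbb-bt arrays of KO and WT overlapped in Foxp3+ cells. Of the 4 probes of the erythroid marker list, KO Foxp3+ cells had 1 called higher and 0 lower than WT, and KO Foxp3- cells had 4 and 0 (limma adjusted p under 0.05). At an unadjusted p under 0.05 the counts were 3 and 0 for KO Foxp3+ cells, and 4 and 0 for KO Foxp3- cells. No share of all probes was counted at that cut, so nothing is read from the unadjusted counts. Hba-a1 and Hbb-bt, chosen by these contrasts, are 2 of the 4. Of the other 2, Hbb-b2 was called higher in KO Foxp3+ cells and both Hbb-b2 and Alas2 in KO Foxp3- cells, beside 1.47% and 10.3% of all probes. The summed level of the 4, members included, ran from 12.70 to 13.25 in KO Foxp3+ cells and 12.23 to 12.33 in WT Foxp3+ cells, and from 11.01 to 11.21 in KO Foxp3- cells and 7.43 to 7.86 in WT Foxp3- cells. The list's Hbb-b1 was not among the probes tested. The part of erythroid RNA in the other members' values was not tested.

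Markers of other cells moved with the groups too. Summed levels of the myeloid and dendritic list (15 probes) ran from 12.69 to 12.76 in KO Foxp3+ cells and 14.51 to 14.63 in WT Foxp3+ cells, and from 10.84 to 10.88 in KO Foxp3- cells and 10.66 to 10.72 in WT Foxp3- cells. For the B cell and antigen presentation list (15 probes) they ran from 12.32 to 13.38 in KO Foxp3+ cells and 13.37 to 13.44 in WT Foxp3+ cells, and from 10.49 to 10.54 in KO Foxp3- cells and 9.83 to 9.89 in WT Foxp3- cells. For the NK and innate-like T cell list (8 probes) they ran from 9.96 to 11.08 in KO Foxp3+ cells and 10.65 to 10.84 in WT Foxp3+ cells, and from 12.64 to 12.66 in KO Foxp3- cells and 10.12 to 10.19 in WT Foxp3- cells. For a gamma delta T cell list with Cd163l1 (4 probes) they ran from 6.04 to 9.93 in KO Foxp3+ cells and 5.83 to 5.91 in WT Foxp3+ cells. In Foxp3- cells they ran from 7.04 to 7.32 in KO and 7.25 to 7.26 in WT. For the shorter gamma delta marker list without Cd163l1 (3 probes) they ran from 5.84 to 7.87 in KO Foxp3+ cells and 5.68 to 5.84 in WT Foxp3+ cells. In Foxp3- cells they ran from 4.85 to 5.45 in KO and 5.44 to 5.44 in WT. KO Foxp3+ replicate 1 stood apart on the longer list, with Cd163l1, a scavenger receptor family gene, at 9.57 on it and at 4.59 on replicate 2. Without that array the rule found 47 probes, 40 of them among the 61, and without replicate 2 it found 82, 53 of them among the 61. No member was in any of these lists. Of their defining genes, Ms4a1, Pax5, Csf1r, Itgam, Ncr1, Zbtb16, Trdc, Tcrg-C, Tcrg-V4 and Il17a were not among the probes tested, and neither was any of the 7 thymic epithelial markers. The part of such cells in the members' values was not tested.

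The contrast between fractions, averaged over both genotypes, came from the arrays that chose the members. It is uncorrelated with the differences of the rule only where the groups have equal spread, and the KO Foxp3+ replicates were further apart than the others. A rule that asks for a high KO Foxp3+ mean then also favours a higher averaged contrast, so its counts and p-values are not independent of how the members were chosen. Of the 61 members, 38 were higher and 8 lower in Foxp3+ cells at an adjusted p under 0.05 (limma, all 13526 probes), and 15 were not called. Among all probes tested 18.4% were called higher and 21.8% lower. The median member was 0.52 higher in Foxp3+ cells on the log2 scale, against a median of -0.06 over all probes. Of the called members, 19 were higher and 2 lower by at least 2-fold. Among all 13526 probes tested, 627 were called higher and 272 lower by at least 2-fold, so these larger calls also leaned to higher. The fit uses 1 spread for all groups. Of the 38 called higher, 33 had a larger difference in WT than in KO cells. The difference ran opposite ways in KO and WT cells for 14 of the 61. By arithmetic, a larger fraction difference in WT cells is the same as a larger KO excess among Foxp3- cells. The rule used the KO excess of each fraction. No share of all probes was counted for either number, so nothing is read from them. Golm1 and both Inppl1 probes were among those called higher on average although their difference in KO cells was below 0, at -0.99 for Golm1 and at -0.18 and -0.17 for Inppl1, against 1.62, 1.14 and 1.27 in WT cells. In KO cells alone 30 members were called higher and 8 lower in the Foxp3+ fraction, beside 12.1% and 12% of all probes. In WT cells alone 40 were called higher and 6 lower, beside 14.7% and 16.6%. The contrasts within a genotype use single groups of the rule and are given as descriptions.

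The members highest in Foxp3+ cells by the averaged contrast were led by Ccr6, Hba-a1, Hbb-bt, Itgae and Bhlhe40. Ccr6 rose 13-fold on probe ILMN_2888448 (3.70 ± 0.22, SE; limma adjusted p = 7.90e-06). Hba-a1 rose 9.1-fold (3.19 ± 0.14, SE; limma adjusted p = 1.62e-06) and Hbb-bt rose 8.05-fold (3.01 ± 0.20, SE; limma adjusted p = 1.27e-05). Among regulators of transcription, Bhlhe40 rose 4.55-fold (2.18 ± 0.11, SE; limma adjusted p = 3.22e-06) and Klf9 rose 3.3-fold (1.72 ± 0.08, SE; limma adjusted p = 2.67e-06). The 3 Itgae member probes rose 3.97-fold to 4.55-fold, and Il10ra rose 2.9-fold. Tnfaip3 rose 1.81-fold, Aim2 1.87-fold, Cxcr4 1.94-fold, Dusp1 2.12-fold and the Klf6 probes 1.99-fold and 2.4-fold, each with an adjusted p of at most 0.00258 (limma). Within each genotype the rises could be unlike. Ccr6 rose 37.1-fold in WT and 4.53-fold in KO cells on ILMN_2888448, and Hba-a1 23.6-fold and 3.5-fold. Hbb-bt rose 12.8-fold in WT and 5.04-fold in KO cells, Bhlhe40 8.8-fold and 2.35-fold, and Klf9 3.43-fold and 3.18-fold. For scale, 28 of 28 probes of the regulatory T cell list, 3 of them Itgae members, were called higher in Foxp3+ cells, with a median of 2.03. The markers of other cells were called higher there too, for 14 of 15 myeloid, 13 of 15 B cell and 4 of 4 erythroid probes. The erythroid probes include 2 members, Hba-a1 and Hbb-bt. Of all probes tested, 18.4% were called higher in Foxp3+ cells.

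The lower members were Dmbt1, Sgk1, Prkd3, Emp1, Fbxo27, Il7r and the unnamed probes ILMN_1219978 and ILMN_3159435. ILMN_1219978 read 7.95 and 7.71 in KO Foxp3+ cells against 6.89 and 6.92 in WT Foxp3+ cells, and 9.77 and 9.86 in KO Foxp3- cells against 8.97 and 9.05 in WT Foxp3- cells. It fell by 2.04 (SE 0.08; limma adjusted p = 1.18e-06) on the log2 scale in Foxp3+ cells. Sgk1 fell by 0.97 (SE 0.10; limma adjusted p = 1.27e-04) and Prkd3 fell by 0.88 (SE 0.10; limma adjusted p = 2.77e-04). Dmbt1 fell by 1.07 (SE 0.20; limma adjusted p = 0.00406), with both WT groups undetected. For Emp1 and Fbxo27 the Foxp3+ minus Foxp3- difference was -1.29 and -1.17 in KO cells, against 0.28 and 0.35 in WT cells. In the thymocyte stage list, 8 of 15 probes, the Il7r member among them, were called lower and 0 higher in Foxp3+ cells (limma adjusted p under 0.05). Of all probes tested, 21.8% were called lower and 18.4% higher. The members not called were Gdpd3, Il18r1, Adat2, Plekha1, Sorl1, Ctse, Fam177a, Nfkbib, Podnl1, F2r, Ovgp1, Stx1a, Nlrc3, Vps11 and ILMN_3026397. For Gdpd3 the averaged difference was 0.12 (SE 0.08; limma adjusted p = 0.261). Several calls near the threshold changed when 1 array was left out, which also leaves fewer residual degrees of freedom. That of Fbxo27 was lost in 6 of the 8 fits that left out 1 array, namely all but those without WT Foxp3+ replicate 2 or KO Foxp3+ replicate 1 (limma adjusted p = 0.0843 to 0.0993). The call of Il7r was lost without WT Foxp3+ replicate 1, either WT Foxp3- replicate, KO Foxp3+ replicate 2 or KO Foxp3- replicate 2 (limma adjusted p = 0.0543 to 0.0896). That of Emp1 was lost without WT Foxp3+ replicate 1 or KO Foxp3- replicate 2 (limma adjusted p = 0.052 and 0.0548), and with Fbxo27 and Il7r lost as well each of these fits left 5 lower members. Among the members called higher, Fbxl12 lost its call in 7 of the 8 fits, all but that without KO Foxp3+ replicate 2 (limma adjusted p = 0.0515 to 0.0932). Tsc22d3 lost it without WT Foxp3+ replicate 2, either WT Foxp3- replicate or KO Foxp3- replicate 2 (limma adjusted p = 0.0516 to 0.0638). Calls were gained by Il18r1, Sorl1 and ILMN_3026397 without KO Foxp3+ replicate 2 (limma adjusted p = 0.0318, 0.0133 and 0.014), by Nfkbib without KO Foxp3+ replicate 1 (0.0369), by F2r without WT Foxp3- replicate 1 (0.0476) and by Plekha1, as lower, without KO Foxp3- replicate 1 (0.0303).

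**Figure D3:**
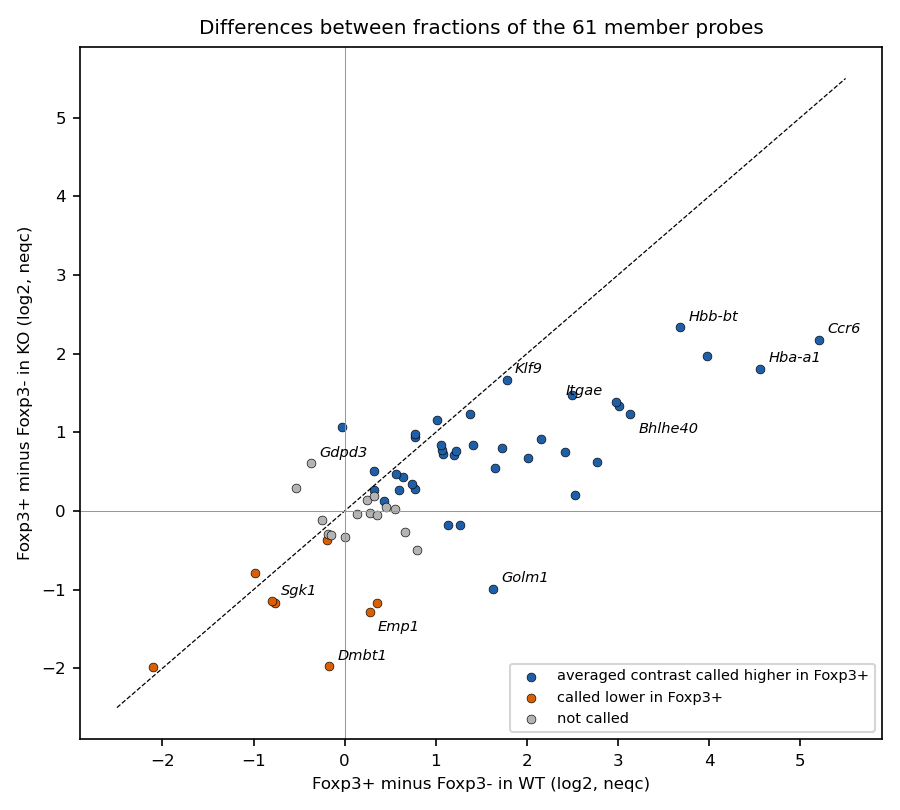
Each point is a member probe, placed by its Foxp3+ minus Foxp3- difference in WT cells (x axis, log2) and in KO cells (y axis, log2), with colours for the averaged contrast and a dashed line of equality. The 38 blue points were called higher in Foxp3+ cells, and Ccr6 lies farthest right, at 5.21 in WT and 2.18 in KO.

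By group mean, 41 members were highest in KO Foxp3+ cells and 20 in KO Foxp3- cells. The lowest group was WT Foxp3+ for 12 and WT Foxp3- for 49. The 12 include Dmbt1 and Cpne4, which no WT array detected, so the order of their WT groups is not measured. The rule sets the genotype in these counts. It asks for no fraction, but the wider spread of the KO Foxp3+ replicates lets it favour high KO Foxp3+ means. The split by fraction is therefore not independent of the rule. KO Foxp3- cells lay above WT Foxp3+ cells for 45 members, and for 22 of the 38 that were higher in the Foxp3+ fraction. The rule favours high KO Foxp3- means and low WT Foxp3+ means, so it pushes this comparison the same way. No share of all probes was counted for it, so these counts are given as descriptions only. Klf6, Cxcr4, Tnfaip3, Aim2, Fos and Fosb were among those with KO Foxp3- cells above WT Foxp3+ cells. Itgae, Ccr6, Hba-a1, Hbb-bt and Bhlhe40 were among those with KO Foxp3- cells below.

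**Figure D4:**
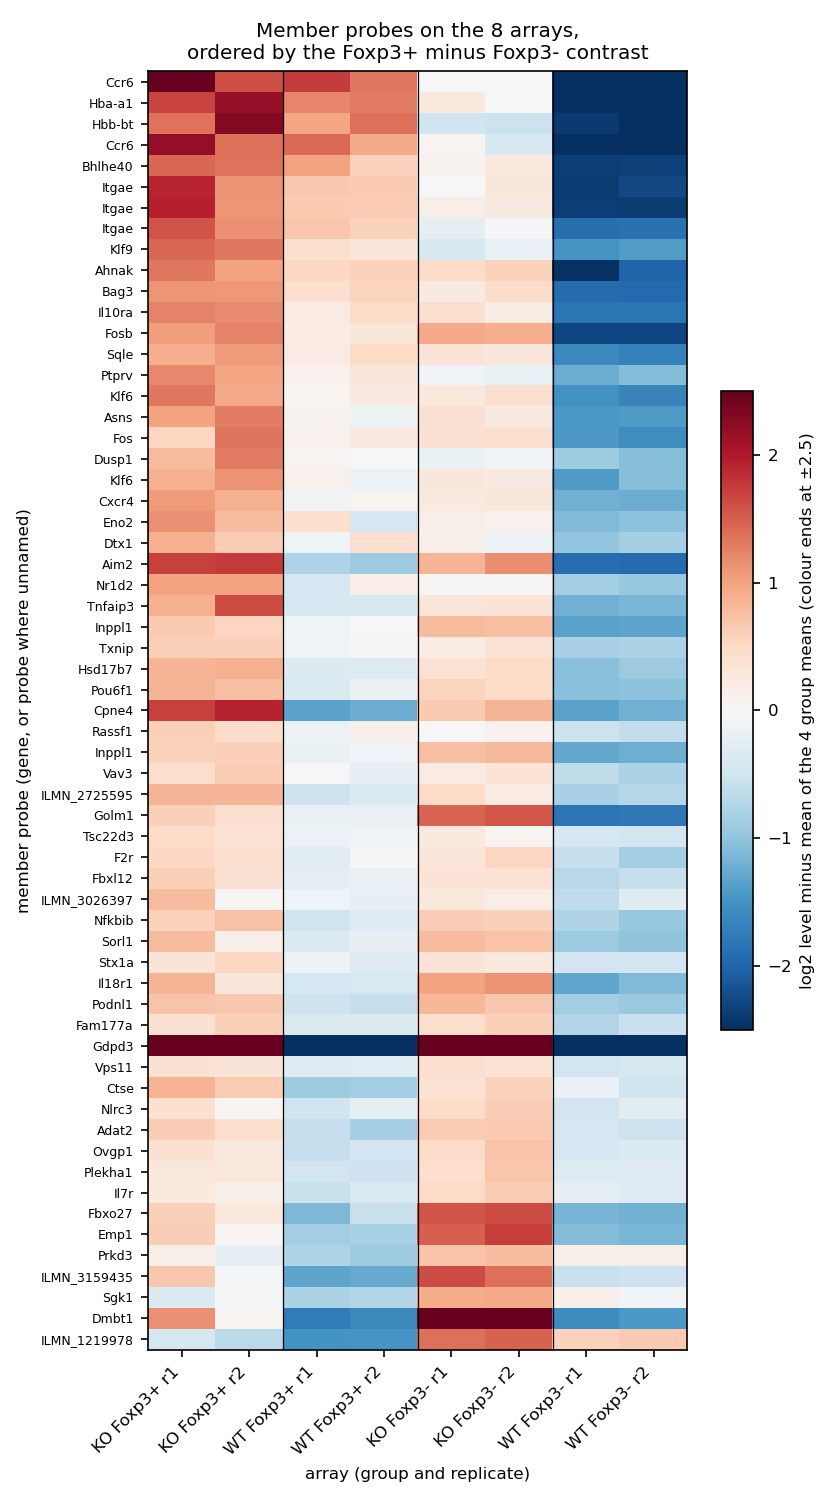
Levels of the 61 member probes (rows) on the 8 arrays (columns), as log2 differences from the mean of the 4 group means, ordered by the averaged contrast. WT Foxp3- cells have the lowest mean for 49 members and WT Foxp3+ cells for 12, which lie near the bottom except for Gdpd3 and Cpne4. The order of the WT groups is not measured for Cpne4 and Dmbt1, which no WT array detected.

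Other probes of the same genes give a second reading. The processed table held 22 further probes for 16 of the member genes, of which 21 were detected on at least 2 arrays. In the authors' values both KO minus WT differences were at least 0.25 for 8 of these, both were above 0 for another 9, and 4 had a difference at or below 0. The 9 were dim, with mean levels of 4.60 to 6.01, and differences of dim probes are smaller in the authors' values. On neqc values the 9 differed by 0.08 to 0.66 in Foxp3+ and by 0.01 to 0.96 in Foxp3- cells. Prkd3 probe ILMN_1221007 differed by 0.55 in Foxp3+ and 0.45 in Foxp3- cells, and Golm1 probe ILMN_2623536 by 0.39 in Foxp3+ and 2.51 in Foxp3- cells. The 3 other Itgae probes differed by 0.14 to 0.40 in Foxp3+ and by 0.18 to 0.85 in Foxp3- cells. The 3 other Fbxl12 probes, detected on all arrays at mean levels of 5.54 to 9.59, differed by -0.22 to -0.03 in Foxp3+ and by -0.10 to 0.30 in Foxp3- cells. For Vav3 the other probe differed by -0.01 in Foxp3+ and -0.08 in Foxp3- cells, and for Plekha1 by 0.08 in Foxp3+ and 0.00 in Foxp3- cells. Both were dimmer than the member probes, at mean levels of 5.08 for Vav3 and 6.01 for Plekha1, so they are weaker readings. On neqc values the Vav3 probe differed by -0.05 in Foxp3+ and -0.28 in Foxp3- cells, and the Plekha1 probe by 0.21 and 0.01. The KO excess of Fbxl12, Vav3 and Plekha1 therefore holds for their member probes, and which transcripts the probes read was not analysed here.

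The member genes lay on chromosomes 1, 3, 5 to 17, 19 and X by the GRCm38.p6 annotation. Chromosome 7 held 9 of the 52 (17.3%), against 8.11% of the 9133 genes tested, and these were Gdpd3, Dmbt1, Fosb, Bag3, Inppl1, Plekha1, Nfkbib, Fbxo27 and Hbb-bt. Chromosomes 1 and 9 held 6 each (11.5%), against 5.18% and 5.84% of the genes tested. Those on chromosome 1 were Il18r1, Cxcr4, Aim2, Ctse, Hsd17b7 and Ptprv, and those on chromosome 9 were Il10ra, Sorl1, Rassf1, Fbxl12, Cpne4 and Vps11. Among the 50 genes that were lower in KO in both fractions by the same threshold, 11 lay on chromosome 7 (22%), 13 on chromosome 9 (26%) and 4 on chromosome 1 (8%). These are counts of few genes and were not tested.

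**Figure D5:**
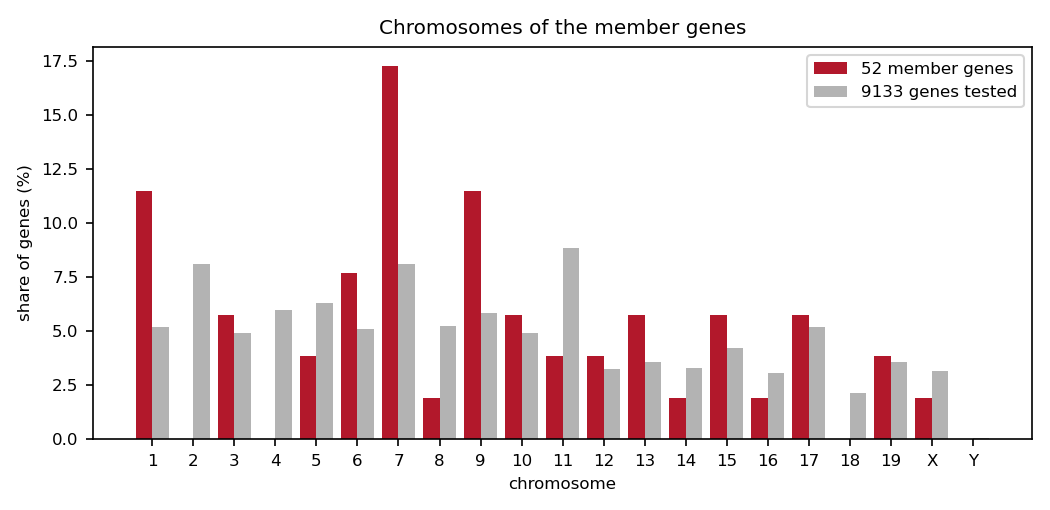
Share of genes on each chromosome (y axis, %) for the 52 member genes (left bar of each pair) and for the 9133 genes tested (right bar). Chromosome 7 has the tallest member bar, at 17.3% against 8.11%.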

How the data were processed

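For every probe on every array the authors deposited a linear bead intensity and its detection p-value. They also deposited processed log2 values for 14942 probes, which quantile normalization of the log2 intensities rebuilt to within 0.000675. Per the submitters' processing notes the tool was GenomeStudio 2011.1, with settings not given in the sources used here.

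Members come from the authors' processed log2 values. Members, gene lists and tests were chosen with earlier results of these data known, and members were grouped by role after their values were seen. For levels and tests, the intensities of 25697 probes were background corrected and quantile normalized with neqc (offset 16) in limma 3.58.1 under R 4.3.3, with negative controls inferred from the detection p-values. The 13526 probes that 2 or more arrays detected (detection p under 0.05) were fitted with lmFit and eBayes as 4 group means over all 8 arrays (4 residual degrees of freedom), two-sided, with Benjamini-Hochberg adjustment over all of them. The fit was also run on simulated data that gave each probe the same spread in every group. That simulation cannot show how the fit behaves under the wider spread of the KO Foxp3+ replicates. Between 11462 and 12540 probes were detected per array, and the number of arrays limits the precision. Exact permutation tests of 2 against 2 arrays were not used. Symbols came from GEO's platform annotation, updated by Entrez identifier. Of the processed table's probes, 14017 had 1 symbol, 0 had several and 925 had none.

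The rule for named genes took the 12 members of largest smaller difference, the 6 highest and 6 lowest called by the averaged contrast, list members, those nearest the threshold, the 4 most uneven each way and genes with several member probes. The other members were named to account for every one. Alternatives changed the values and threshold of the rule, background correction, normalization, filter, variance model and replicate block, and left out each array.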

Additional observations from a re-analysis of the deposited data

Results flagged for a closer look

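For these probes the difference between fractions ran one way on every KO array and the opposite way on every WT array, and this difference between genotypes was not tested. The values are the Foxp3+ minus Foxp3- difference in KO cells minus that in WT cells, on the log2 scale. Gdpd3 (0.976) and Ctse (0.8316) were higher in Foxp3+ cells in KO and lower there in WT. Golm1 (-2.611), Emp1 (-1.563), Fbxo27 (-1.526), Il18r1 (-1.296) and both Inppl1 probes (-1.32 for ILMN_2620913 and -1.444 for ILMN_1215550) were lower in Foxp3+ cells in KO and higher there in WT. The same arrays chose the members, by the KO excess of each fraction, from which these values also follow.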

How the results depend on the processing

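The number of members depended on the values and the threshold. It was 216 on neqc values, which held all 61, 57 each under median scaling and cyclic loess, 15 at a threshold of 0.75, 3 at a threshold of 1, and 22 when every KO array had to exceed every WT array by 0.5. It ran from 47 to 82 when 1 array was left out. The median KO minus WT difference of members was 0.596 in Foxp3+ and 0.8704 in Foxp3- cells both without background correction and from the authors' values, and ran from 0.7815 to 0.9503 and from 1.493 to 1.561 when 1 array was left out. Members higher in the Foxp3+ fraction numbered 33 (median scaling) to 41 (cyclic loess) over all other settings, and 36 to 41 when 1 array was left out. Members lower there numbered 7 to 11 over those settings and 5 to 8 when 1 array was left out, with 5 both without WT Foxp3+ replicate 1 and without KO Foxp3- replicate 2. With the replicate number as a block they were 38 higher and 7 lower. Whether replicate numbers pair the samples is not known. The 6 correlations of same-numbered deviations ran from -0.029 to 0.10, which cannot exclude pairing, since noise of single arrays can hide it. Over all probes, counts ran from 1983 to 2567 higher and 2113 to 3047 lower when 1 array was left out. Of the called probes 45.7% were higher in Foxp3+ cells, against 32% under median scaling and 56% under cyclic loess, and of the called members 82.6%, 75% and 85.4%. The median of all probes was -0.14 under median scaling, where Gdpd3 (-0.0098), Il18r1 (-0.010), Fam177a (-0.046) and Vps11 (-0.13), not called in either, changed sign; the cause was not tested. Over the 61 members, 972 of 1037 repeats kept direction and side of the threshold, 34 lost the call (Golm1, Emp1, Il7r, Fbxo27, Fbxl12, Tsc22d3, Vav3 and ILMN_2725595) and 27 gained it (Gdpd3, Adat2, Il18r1, Plekha1, F2r, Ovgp1, Stx1a, Nfkbib, Podnl1, Sorl1 and ILMN_3026397). Signal over background limits Dmbt1, Cpne4, Asns and 1 Ccr6 probe to bounds.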
